A study of Mus musculus with 18 samples.

Results

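Imprinted genes are genes of which only the copy inherited from the mother, or only the copy from the father, is normally active. A list of 38 of them was followed through mouse brain RNA-seq, out of 53468 genes in the count table. The members were taken by gene symbol, matched to the table's Ensembl identifiers through GENCODE M21, and they fall into 18 chromosomal clusters, with 14 members on chromosome 7. By textbook assignment 20 are expressed from the paternal copy, 12 from the maternal copy, Ube3a from the maternal copy in neurons, and in 5 the active copy depends on tissue or isoform. The samples were forebrain, midbrain and hindbrain of 6 mice of the same litter at postnatal day 25. Of these, 3 carried a knock-in of a nucleotide change in a cis-regulatory element of Fmr1, the X-linked fragile X gene (Fmr1CRE, made with CRISPR/Cas9 in zygotes), and 3 were wild type (WT). Both groups shared the C57BL/6 background to which founders were crossed, and which of several founder lines gave these mice is not stated in the sources used here. Each mouse gave 1 poly(A)-selected library per region, so there were 18 libraries of 22455512 to 28061185 counts. Which parental copy a read came from was not measured, so every value sums both copies.

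In an imprinted cluster a differentially methylated region, marked in the egg or the sperm, sets which copy of several neighbouring genes is read, often through a long noncoding RNA that silences its neighbours. The zinc finger protein ZFP57 holds that mark after fertilization by binding a methylated hexamer, TGCCGC. Many imprinted genes act in fetal growth and in the hypothalamus and brainstem, where they bear on feeding, sleep and maternal care, and loss of the active copy of the human counterparts of the Snrpn-Ube3a cluster underlies Prader-Willi and Angelman syndromes.

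Promoters, taken as 300 bases around each RefSeq start, most of them upstream (GRCm38.p6, the same assembly as the files' mm10), were found for 30 of the 38 members, 45 promoters in all. TGCCGC, searched on both strands, lay in 24.4% of the 45 member promoters and in 11.6% of all 32851 promoters of the same length. Counted per gene, 33.3% of the 30 members and 13.1% of 27025 genes held it in a promoter. Member promoters held a median of 14 CpG sites against 7 in all promoters. The hexamer itself contains a CpG, and the part of CpG content in its share was not tested. The sequences below are those of 4 of the 5 paternally expressed members that were called between regions and hold the hexamer in a promoter, followed by the promoter of the maternally expressed Meg3. Capitals mark TGCCGC or its reverse complement GCGGCA.
Mest (chr6:30737800-30738099, forward strand): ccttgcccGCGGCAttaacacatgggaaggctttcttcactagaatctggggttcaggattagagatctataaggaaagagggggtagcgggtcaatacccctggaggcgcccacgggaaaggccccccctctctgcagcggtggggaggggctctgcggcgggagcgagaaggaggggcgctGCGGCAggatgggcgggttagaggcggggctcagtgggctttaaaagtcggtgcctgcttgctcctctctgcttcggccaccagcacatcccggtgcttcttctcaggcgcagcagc
Nap1l5 (chr6:58907077-58907376, reverse strand): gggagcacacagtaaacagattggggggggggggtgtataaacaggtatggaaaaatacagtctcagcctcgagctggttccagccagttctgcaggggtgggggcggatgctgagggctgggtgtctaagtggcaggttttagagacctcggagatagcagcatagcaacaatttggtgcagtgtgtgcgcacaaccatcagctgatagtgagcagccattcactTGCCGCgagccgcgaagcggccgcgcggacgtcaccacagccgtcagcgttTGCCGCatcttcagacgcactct
Nnat (chr2:157559828-157560127, forward strand): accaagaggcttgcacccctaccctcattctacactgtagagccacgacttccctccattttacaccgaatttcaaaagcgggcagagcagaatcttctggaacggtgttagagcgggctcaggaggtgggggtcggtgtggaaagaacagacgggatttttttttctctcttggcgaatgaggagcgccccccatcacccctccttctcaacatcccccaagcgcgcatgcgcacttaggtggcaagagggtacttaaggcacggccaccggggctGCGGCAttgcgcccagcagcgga
Plagl1 (chr10:13090582-13090881, forward strand): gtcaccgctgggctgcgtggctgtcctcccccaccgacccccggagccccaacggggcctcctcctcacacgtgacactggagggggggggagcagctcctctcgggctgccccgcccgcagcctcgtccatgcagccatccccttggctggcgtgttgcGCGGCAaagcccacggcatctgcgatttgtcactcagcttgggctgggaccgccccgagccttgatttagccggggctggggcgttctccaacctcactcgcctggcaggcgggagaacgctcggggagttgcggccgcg
Meg3 (chr12:109540746-109541045, forward strand): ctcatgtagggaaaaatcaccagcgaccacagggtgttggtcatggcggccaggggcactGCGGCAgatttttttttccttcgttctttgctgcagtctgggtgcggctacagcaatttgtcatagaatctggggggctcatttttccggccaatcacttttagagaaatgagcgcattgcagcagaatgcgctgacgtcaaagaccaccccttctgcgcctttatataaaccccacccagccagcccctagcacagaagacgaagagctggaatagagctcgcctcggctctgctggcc
Mest and Nap1l5 carried 2 copies of the hexamer and the others 1. The promoter of a Mest start further upstream, chr6:30733256-30733555, had none. The fifth such member, Igf2, held 1 copy in 1 of its 4 promoters and is not printed. These matches describe letters in the windows, and neither methylation nor binding was measured.

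Some properties of the libraries bear on the members. Levels are given as CPM, counts scaled to a common library size by edgeR's trimmed mean of M-values. By these values the regions were separated but not pure. Summed CPM of 10 forebrain marker genes ran from 571 to 973 in forebrain and 65.0 to 100.30 in hindbrain, but reached 273 to 500.3 in midbrain, where 12 hindbrain markers also gave 128 to 380.1. The 10 midbrain markers gave 48.6 to 114 in midbrain, 4.62 to 17.0 in forebrain and 13.2 to 21.0 in hindbrain. The 12 hypothalamic genes summed to 6.16, 14.5 and 64.6 CPM in the 3 Fmr1CRE forebrains and to 87.9, 99.6 and 52.4 in the WT forebrains. In midbrain the order of genotypes was the other way, with 123, 84.8 and 46.8 CPM in Fmr1CRE and 23.5, 8.90 and 6.68 in WT. In bulk tissue, fewer cells of a type and less RNA per cell cannot be told apart. Fmr1 itself read 74.6, 78.8 and 74.1 CPM in Fmr1CRE forebrain and 80.6, 83.4 and 69.2 in WT forebrain, and the genotypes also overlapped in the other regions.

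The libraries labelled replicate 3 stood apart in 1 check of whether a pair of mice keeps its difference in every region. Of 10 genes that differed at least 4-fold, in the same direction, between Fmr1CRE mouse 3 and WT mouse 3 in both midbrain and hindbrain, 9 differed in the opposite direction in forebrain and 1 in the same direction. Of 7 genes that differed in this way in both forebrain and hindbrain, 6 were opposite in midbrain, so which region's libraries were apart was not resolved. The labels were kept, and the forebrain and the midbrain libraries of these mice were each left out as an alternative, the latter chosen after the data were seen.

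At postnatal day 25 the list spanned a wide range of levels. Per kilobase of mean effective transcript length, Gnas, the stimulatory G protein alpha subunit, had a median of 1397 CPM per kilobase in midbrain, ahead of the noncoding RNAs Meg3 at 839 and Rian at 746. Nap1l5, a nucleosome assembly protein family member, followed at 646 and Snrpn, the spliceosomal SmN protein, at 415. The midbrain ranges of Meg3, Rian and Nap1l5 overlapped, so their order was not resolved. These genes took the first 5 places in every region, but their order in midbrain changed with annotated exon length in place of effective length. Nap1l5 and Snrpn then came in places 1 and 2, Meg3 in place 4, Gnas in place 5 and Rian in place 10.

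**Figure D1:**
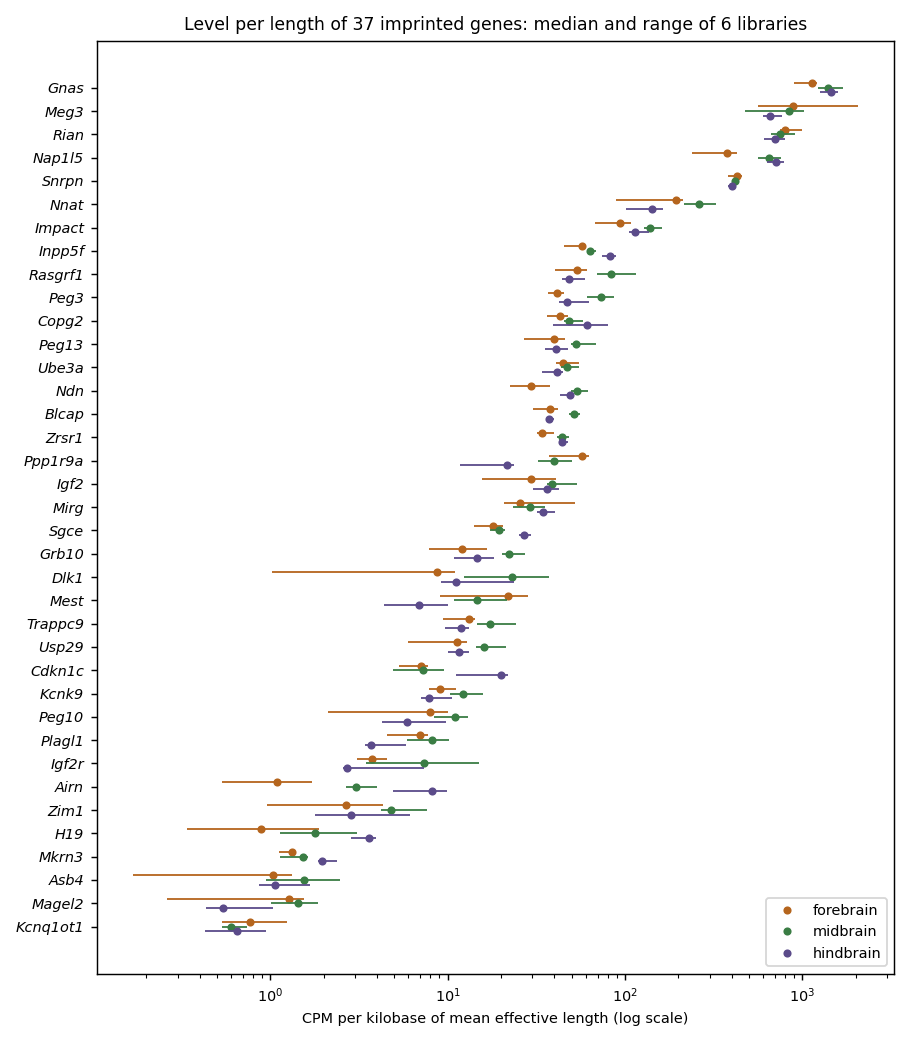
Level of 37 imprinted genes in CPM per kilobase of mean effective length, on a log axis. Points are the median and lines the range of the 6 libraries of a region, and genes are ordered by their mean level, with Gnas, Meg3 and Rian at the top. Phlda2 is not drawn because most of its libraries were at 0.

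At the low end, Phlda2, a regulator of placental growth, had 0 to 3 counts per library and could not be tested, so 37 members entered the tests. Mkrn3, a makorin RING-finger gene, ran from 2.68 to 3.35 CPM in forebrain, and the antisense RNA Airn from 0.352 to 1.13. Within a region, over the 6 mice, the median coefficient of variation of the members was 17.3% for forebrain, 14.7% for midbrain and 11.9% for hindbrain libraries, against 18.7%, 16.2% and 18.1% over 20363 genes.

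Between regions, the members leaned towards midbrain. The regions were compared within mice by edgeR's quasi-likelihood test on all 18 libraries, with Benjamini-Hochberg adjustment over 20363 genes. Between forebrain and midbrain, 17 of 37 members had an adjusted p under 0.05, against 17% of all genes, and all 17 were higher in midbrain, where 8.94% of all genes were. No member was called higher in forebrain than in midbrain, against 8.07% of all genes, although at an unadjusted p under 0.05 there was 1 (background 15.7%), Ppp1r9a, which DESeq2 also called (background 10.2%). The median log2 difference, forebrain minus midbrain, was -0.47 over the members and 0.02 over all genes. Between midbrain and hindbrain, 22 members were called against 47.5% of all genes, 16 higher in midbrain and 6 higher in hindbrain, with backgrounds of 24.6% and 22.9%. Between forebrain and hindbrain, 18 members were called against 50.1% of all genes, 5 higher in forebrain and 13 higher in hindbrain, with backgrounds of 25.7% and 24.4%. With total counts in place of trimmed-mean scaling, the share of all called genes that were higher in forebrain moved from 51.4% to 38.9% against hindbrain and from 47.4% to 30.9% against midbrain, and of the members 3 were then higher and 16 lower against hindbrain, and 0 higher and 19 lower against midbrain. The median of all genes then moved from -0.01 to -0.15 for forebrain minus hindbrain and from -0.03 to -0.11 for midbrain minus hindbrain, and that of the members to -0.30 and 0.22.

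The members also fell into patterns over the 3 regions, counted where both comparisons of a region passed. These patterns reuse the same libraries in both comparisons. Counts of mice given below for members with a pattern come from those libraries too and are no separate support. Midbrain exceeded both other regions for 9 of 37 members, 24.3%, while 2.69% of all genes had that pattern. Midbrain lay below both for 0 members (background 1.73%), and for 0 also at an unadjusted p under 0.05 (background 4.07%) and in DESeq2 (background 2.47%). Hindbrain exceeded both for 6 members (background 17.1%) and lay below both for 4 (background 19.4%). Forebrain lay below both for 7 members (background 5.8%). Forebrain exceeded both for 0 members (background 5.95%), and for 1, Ppp1r9a, at an unadjusted p under 0.05 (background 9.88%) or in DESeq2 (background 7.12%). Differences of at least 1 on the log2 scale were called for 5 members between forebrain and hindbrain, 2 higher in forebrain (Ppp1r9a and Mest, background 10.4%) and 3 higher in hindbrain (H19, Cdkn1c and Airn, background 7.81%), of 18.3% of genes in either direction. Between forebrain and midbrain there were 2 (background 3.73%), Dlk1 and Airn, both higher in midbrain (background 2.14%, against 1.59% for the other direction). Between midbrain and hindbrain there were 7 (background 14.4%), 5 higher in midbrain (Magel2, Igf2r, Mest, Ppp1r9a and Plagl1, background 8.34%) and 2 higher in hindbrain (Cdkn1c and Airn, background 6.03%).

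**Figure D2:**
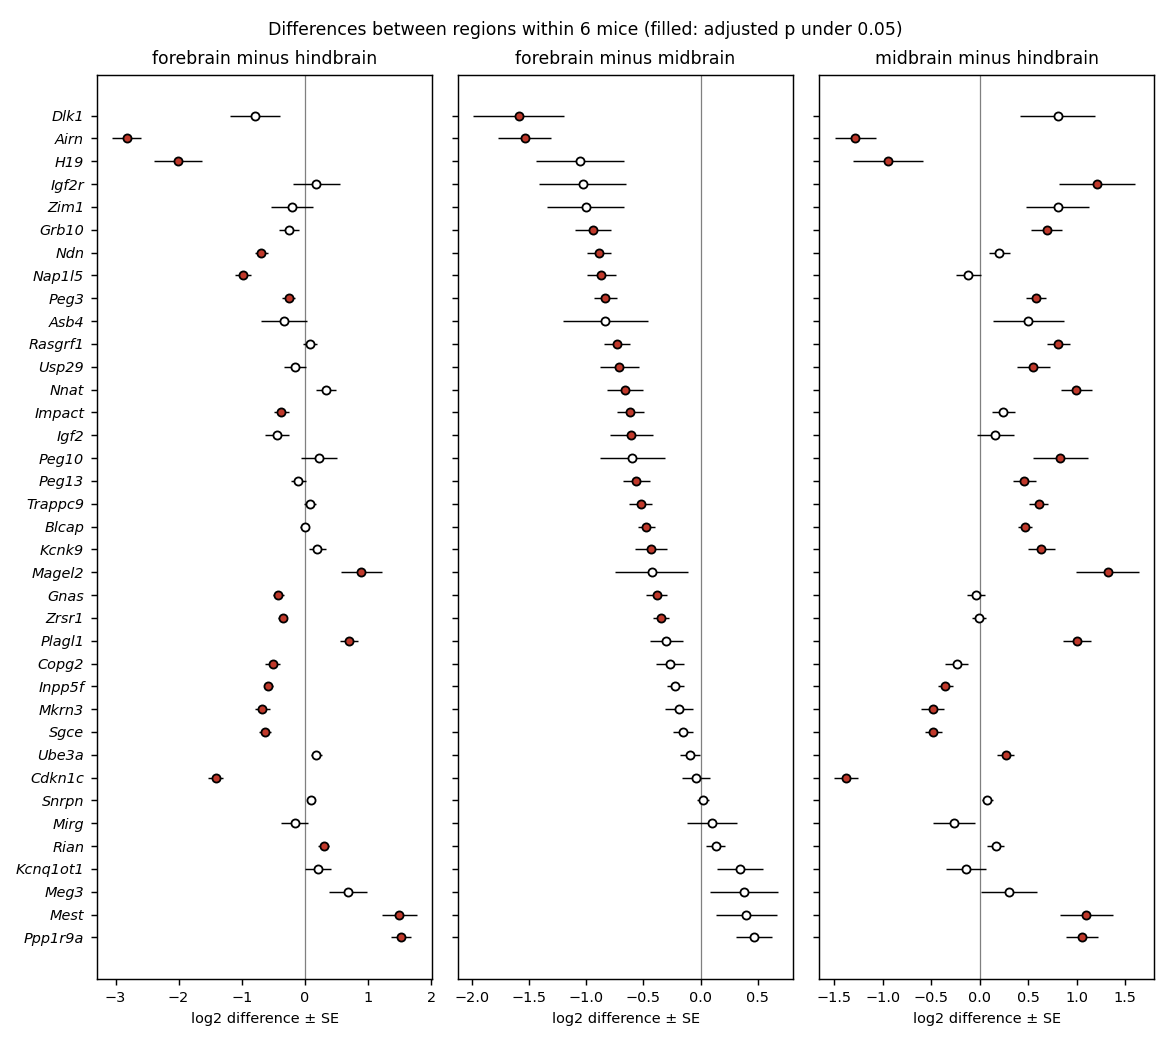
Log2 difference ± SE for 37 imprinted genes in each of the 3 region comparisons, ordered by forebrain minus midbrain. Filled points have an adjusted p under 0.05, and in the middle panel all 17 filled points lie left of 0, from -1.59 for Dlk1 to -0.35 for Zrsr1.

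The 9 members highest in midbrain came from 5 clusters and both parental origins. In the Peg3 cluster, Peg3, a zinc finger gene with a role in maternal behaviour (chr7:6703892-6730431 of GRCm38, the build of all positions given), read 574, 479 and 532 in Fmr1CRE and 635, 539 and 450.0 in WT midbrain (CPM of mice 1, 2 and 3 in that order, here and below). It read 276, 314 and 318 in Fmr1CRE and 333, 269 and 295 in WT forebrain, and 320.3, 459.8 and 358 in Fmr1CRE and 329.7, 313 and 379 in WT hindbrain. Every midbrain library lay above every forebrain library, and midbrain was the highest region in 6 of 6 mice. The log2 difference was -0.83 ± 0.10, adjusted p = 0.000144 for forebrain minus midbrain and 0.58 ± 0.10, adjusted p = 0.000448 for midbrain minus hindbrain. Peg3 was also lower in forebrain than in hindbrain (-0.26 ± 0.10, adjusted p = 0.0491), a call lost in 11 of 17 alternative analyses. Its divergent neighbour Usp29, a ubiquitin peptidase gene whose start lies next to that of Peg3, had midbrain values of 107, 77.3 and 87.6 in Fmr1CRE and 83.1, 72.4 and 78.1 in WT, against 29.9 to 64.0 (median 56.8) CPM in forebrain and 50.2 to 66.4 (median 58.1) in hindbrain. Usp29 differed by -0.71 ± 0.17, adjusted p = 0.0107 and by 0.55 ± 0.17, adjusted p = 0.0143, in the same order. The maternally expressed neighbour Zim1 ranged from 12.3 to 22.4 (median 14.1) CPM in midbrain, 2.80 to 12.7 (median 7.82) in forebrain and 5.26 to 18.1 (median 8.40) in hindbrain, but neither of its differences from midbrain passed the test (-1.01 ± 0.33, adjusted p = 0.0534, and 0.80 ± 0.33, adjusted p = 0.0586).

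In the Peg13-Kcnk9 cluster all 3 members were highest in midbrain. Peg13, a paternally expressed noncoding RNA inside an intron of Trappc9, read 261, 256 and 265 in Fmr1CRE and 343, 299 and 248 in WT midbrain, 135 to 228 (median 197) CPM in forebrain and 176 to 236 (median 202) in hindbrain. Forebrain minus midbrain was -0.56 ± 0.12, adjusted p = 0.00597. Trappc9, a vesicle trafficking subunit expressed mainly from the maternal copy in brain, read 55.4, 64.1 and 66.3 in Fmr1CRE and 92.0, 80.9 and 57.2 in WT midbrain, 35.6 to 53.8 (median 49.5) CPM in forebrain and 36.5 to 49.9 (median 44.9) in hindbrain, and forebrain minus midbrain was -0.52 ± 0.10, adjusted p = 0.00311. Kcnk9, the TASK3 potassium channel, read 122 to 187 (median 144) CPM in midbrain, 92.7 to 132 (median 107) in forebrain and 84.2 to 125 (median 93.0) in hindbrain. Its ranges overlapped, midbrain was its highest region in 4 of 6 mice, and its difference of -0.44 ± 0.14, adjusted p = 0.0451 lost the call in 7 of 17 alternative analyses. The paternal noncoding RNA and the maternal coding genes of this cluster were thus high in the same region. Reads of Peg13 and of Trappc9 introns cannot be told apart by position.

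In the Nnat-Blcap cluster, where Nnat, a small membrane protein gene, lies inside Blcap on the other strand, Nnat read 280.3, 261 and 351 in Fmr1CRE and 344, 286 and 231 in WT midbrain and 95.4, 172 and 205 in Fmr1CRE and 212, 229 and 215 in WT forebrain. In hindbrain it read 109.6 to 176 (median 153) CPM, so that the midbrain libraries lay above all others. Forebrain minus midbrain was -0.66 ± 0.16, adjusted p = 0.0112, and midbrain minus hindbrain 0.99 ± 0.16, adjusted p = 0.000180. Without the forebrain libraries of Fmr1CRE mice 1 and 2, an alternative chosen after the data were seen, the first was -0.45 with an adjusted p of 0.0584 in edgeR. Blcap differed by -0.47 ± 0.07, adjusted p = 0.000723, and by 0.47 ± 0.07, adjusted p = 0.000159, in the same order, with values from 82.9 to 95.5 CPM in midbrain, 52.2 to 71.9 in forebrain and 61.2 to 68.6 in hindbrain. Grb10, an adaptor that damps insulin receptor signalling (chr11:11930508-12038683), read 100.01, 82.3 and 80.7 in Fmr1CRE and 91.5, 73.7 and 80.5 in WT midbrain, 28.6 to 60.7 (median 44.2) CPM in forebrain and 39.7 to 66.8 (median 53.6) in hindbrain. Every midbrain library of Grb10 lay above every forebrain library, with a difference of -0.94 ± 0.16, adjusted p = 0.00145. Rasgrf1, an exchange factor for Ras (chr9:89909908-90026977), read 286, 302 and 327 in Fmr1CRE and 434, 369 and 260.2 in WT midbrain, with 151 to 229.6 (median 203) CPM in forebrain and 167 to 224 (median 181) in hindbrain. Its forebrain minus midbrain difference was -0.73 ± 0.12, adjusted p = 0.000778. Counting by strand is not given in the sources used here, so reads over Nnat inside Blcap are uncertain.

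**Figure D3:**
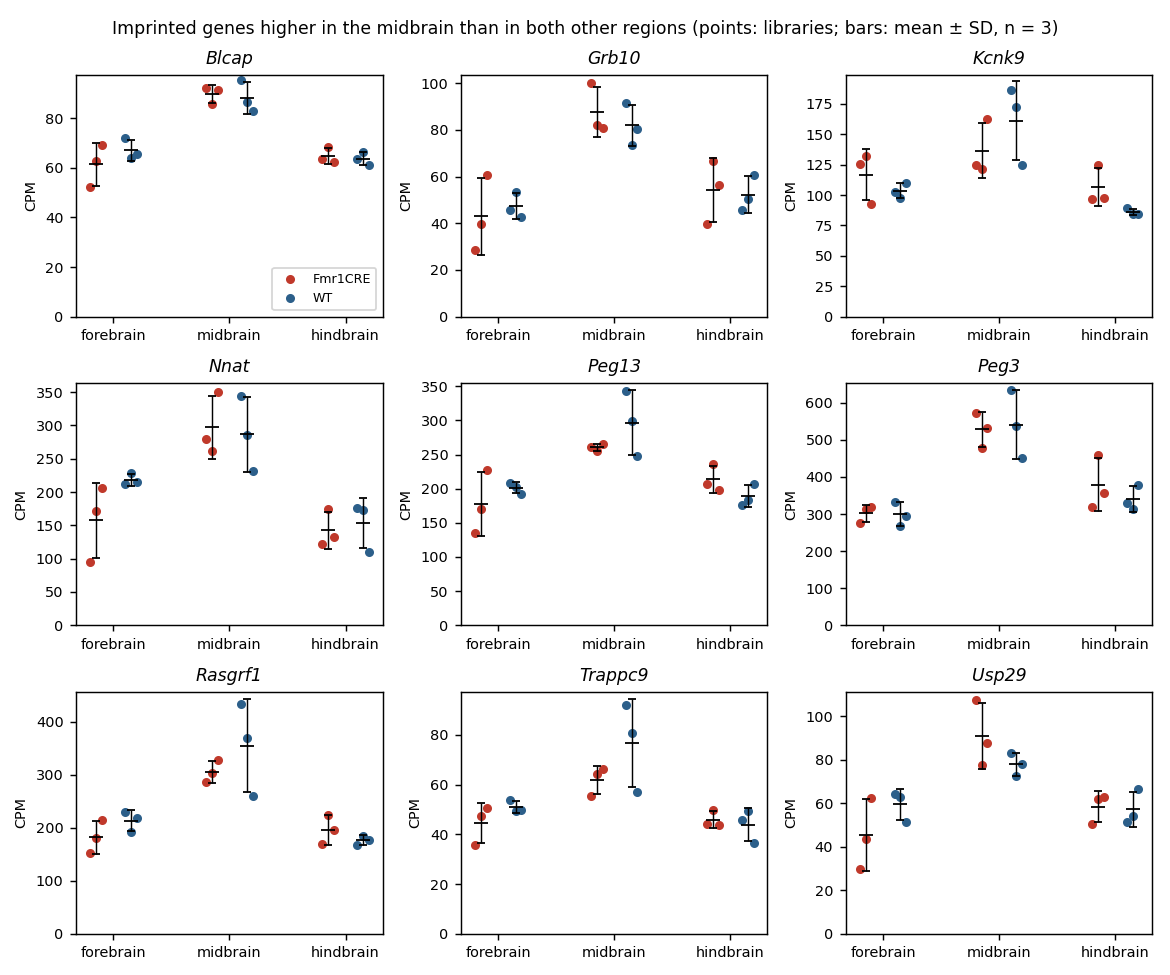
CPM of the 9 imprinted genes that were higher in midbrain than in forebrain and in hindbrain. Points are libraries, bars the mean ± SD of 3 mice, and for 8 of the 9 genes midbrain was the highest region in all 6 mice. The genes were chosen for this pattern in the same libraries, so the ranking within mice is no separate support.

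The sum of the 12 hypothalamic genes did not order midbrain and forebrain the same way in all mice. In WT mice it was 23.5, 8.90 and 6.68 CPM in midbrain and 87.9, 99.6 and 52.4 in forebrain. In Fmr1CRE mice it was 123, 84.8 and 46.8 CPM in midbrain and 6.16, 14.5 and 64.6 in forebrain, so that mice 1 and 2 had more in midbrain and the WT mice more in forebrain. Its part in the result was not tested. With WT mice alone, 5 members exceeded both other regions in midbrain, and with Fmr1CRE mice alone 1 did, while the count over all genes fell to 152 and 6. The neuronal list of 7 genes summed to 4867 to 5860.3 CPM in midbrain, 4122 to 5331 in forebrain and 3971 to 4295 in hindbrain. Midbrain and forebrain overlapped, and Fmr1CRE mouse 3 had more in forebrain (5331 against 5295 CPM). The 6 oligodendrocyte genes summed to 12878 to 16421.5 CPM in forebrain, 16980 to 20197 in midbrain and 29536 to 41483 in hindbrain. The 6 astrocyte genes summed to 1804 to 2736, 2272 to 2677 and 3270 to 3854 CPM in the same order. The part of these lists in the result was not tested.

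A second group was lower in forebrain than in both other regions. Nap1l5 read 257, 338 and 459 in Fmr1CRE and 432, 458 and 375 in WT forebrain, against 813, 602 and 681 in Fmr1CRE and 709.5, 625 and 766 in WT midbrain and 677 to 848 (median 768) CPM in hindbrain. No forebrain library reached the lowest of the others. The differences were -0.87 ± 0.13, adjusted p = 0.000484 for forebrain minus midbrain, and -0.99 ± 0.13, adjusted p = 2.01e-05 for forebrain minus hindbrain. Ndn, the growth-restraining MAGE protein necdin, read 72.4, 83.8 and 122 in Fmr1CRE and 93.2, 108 and 97.1 in WT forebrain and 160.2 to 200.5 (median 174) CPM in midbrain and 139.6 to 166 (median 158) in hindbrain. Ndn differed by -0.89 ± 0.11, adjusted p = 0.000120, and by -0.69 ± 0.11, adjusted p = 0.000107, in the same order. Gnas, Zrsr1, a splicing factor gene, and Impact, a brake on the Gcn2 kinase, followed with smaller differences of -0.38, -0.35 and -0.62 against midbrain, at adjusted p of 0.0122, 0.00603 and 0.00302. Each was lower in forebrain than in midbrain in 6 of 6 mice. Their CPM in forebrain were 873 to 1166 for Gnas, 55.1 to 68.9 for Zrsr1 and 181 to 286 for Impact, and in midbrain 1188 to 1646, 71.4 to 84.1 and 339 to 428. In hindbrain they were 1223 to 1545, 74.1 to 82.9 and 281 to 365, and the Impact call against hindbrain (-0.38 ± 0.12, adjusted p = 0.0164) was lost in 5 of 17 alternative analyses.

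Dlk1, a Notch-like membrane protein (chr12:109452823-109463336), and Airn had the 2 called differences of at least 1 on the log2 scale between forebrain and midbrain. Dlk1 read 2.49, 21.8 and 20.8 in Fmr1CRE and 26.9, 18.7 and 24.0 in WT forebrain, and 58.1, 37.5 and 57.5 in Fmr1CRE and 91.0, 55.6 and 30.4 in WT midbrain. The forebrain library of Fmr1CRE mouse 1 was far below the rest, but all forebrain libraries were below all midbrain libraries. The difference was -1.59 ± 0.40, adjusted p = 0.0142, beside -1.54 ± 0.23, adjusted p = 0.000579 for Airn, so that their order was not resolved. For Dlk1 without Fmr1CRE mouse 1 it was -1.22 with an adjusted p of 0.0113 in edgeR. In hindbrain Dlk1 ran from 22.5 to 58.0 (median 27.2) CPM. Igf2, the growth factor, was also lower in forebrain than in midbrain (-0.61 ± 0.19, adjusted p = 0.0421), with 35.1, 33.9 and 88.4 in Fmr1CRE and 62.2, 66.5 and 78.0 in WT forebrain, 78.6, 88.1 and 79.8 in Fmr1CRE and 117, 81.5 and 93.3 in WT midbrain, and 65.8 to 92.2 (median 79.1) CPM in hindbrain. The Igf2 call was lost without the forebrain libraries of Fmr1CRE mice 1 and 2, at -0.30 with an adjusted p of 0.238 in edgeR, and in 8 of 17 alternative analyses in all. Igf2 is a known product of meninges and choroid plexus. The 11 meningeal and fibroblast genes summed to 84.4 to 133 CPM in forebrain, 121 to 201 in midbrain and 125 to 194 in hindbrain. The 11 choroid plexus genes summed to 406 to 916 CPM in forebrain, 196 to 519.7 in midbrain and 959 to 3325 in hindbrain. The part of either list in the Igf2 result was not tested.

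Hindbrain held the highest level of 6 members. Cdkn1c, the cell cycle inhibitor p57 (chr7:143458339-143461050), read 23.9, 23.2 and 13.1 in Fmr1CRE and 20.7, 25.8 and 25.9 in WT hindbrain, 5.78 to 11.2 (median 8.57) CPM in midbrain and 6.26 to 9.16 (median 8.36) in forebrain, without overlap. The difference was -1.42 ± 0.13, adjusted p = 5.47e-07 for forebrain minus hindbrain, and -1.38 ± 0.12, adjusted p = 1.28e-06 for midbrain minus hindbrain. The scaling of Cdkn1c counts by transcript length varied from 0.641 to 1.54 times the assigned reads over the 18 transcript-level files. That is a range of 2.39-fold, against region folds of 2.67 and 2.60, so the size of both differences is uncertain. H19, a noncoding RNA read from the maternal copy (chr7:142575529-142578143), had 4.59, 4.73 and 4.59 in Fmr1CRE and 4.71, 5.15 and 3.68 in WT hindbrain, 2.24, 1.48 and 2.37 in Fmr1CRE and 2.57, 1.80 and 3.97 in WT midbrain, and 1.78, 1.65 and 2.43 in Fmr1CRE and 0.440, 0.444 and 0.665 in WT forebrain. Forebrain minus hindbrain was -2.01 ± 0.38, adjusted p = 0.000576, and the smaller difference of midbrain and hindbrain (-0.95 ± 0.36, adjusted p = 0.0431) lost its call in 7 of 17 alternative analyses. These are low levels, 93 to 156 deposited counts in hindbrain and 10 to 57 in forebrain. The 11 choroid plexus genes summed to 959 to 3325 CPM in hindbrain, 406 to 916 in forebrain and 196 to 519.7 in midbrain, and their part in these results was not tested. The Kcnq1ot1 RNA, which silences Cdkn1c in cis, read 41.0 to 95.9 (median 58.9) CPM in forebrain, 41.3 to 56.6 (median 46.4) in midbrain and 32.8 to 72.6 (median 50.2) in hindbrain, and no comparison of it passed the test.

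Airn, the paternal antisense RNA that silences Igf2r (chr17:12741311-12860136), had the largest called difference between regions among the members. It read 0.632, 0.823 and 0.724 in Fmr1CRE and 0.352, 1.13 and 0.705 in WT forebrain, 1.79, 2.01 and 1.77 in Fmr1CRE and 1.96, 2.45 and 2.64 in WT midbrain, and 6.54, 3.21 and 4.93 in Fmr1CRE and 5.75, 5.78 and 4.59 in WT hindbrain. The 3 regions did not overlap. Forebrain minus hindbrain was -2.82 ± 0.23, adjusted p = 2.56e-07, and midbrain minus hindbrain was -1.28 ± 0.21, adjusted p = 0.000242. The levels are low, with 8 to 28 deposited counts in forebrain and 89 to 184 in hindbrain. Counting by strand is not given in the sources used here. Airn overlaps Igf2r on the other strand, so its reads there are uncertain. Its overlapping partner Igf2r, the receptor that clears Igf2, read 24.2, 106 and 33.2 in Fmr1CRE and 69.7, 82.0 and 26.7 in WT midbrain, 18.2, 20.5 and 18.9 in Fmr1CRE and 18.0, 19.2 and 51.6 in WT hindbrain, and 21.6 to 32.0 (median 26.3) CPM in forebrain. Midbrain minus hindbrain passed the test (1.21 ± 0.39, adjusted p = 0.0197), but the call was lost without WT mouse 1 (adjusted p = 0.0855 in edgeR), WT mouse 2 (0.0853) or Fmr1CRE mouse 2 (0.0832). Those are the mice with the 3 high midbrain libraries. Over the 18 transcript-level files, the reads assigned to Igf2r ran from 445 to 1120, while the same files, scaled by transcript length as the deposited counts are, gave 449 to 2789. In these files a short processed transcript, Igf2r-202, held up to 67.6% of the TPM of Igf2r. The level of Igf2r in the count table thus depended on which transcript its reads were assigned to, and its difference between regions is uncertain.

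Sgce, epsilon-sarcoglycan, Inpp5f, a phosphoinositide phosphatase gene, and Mkrn3 were also highest in hindbrain, in 6 of 6 mice each. Sgce read 32.0 to 37.5 (median 34.3) CPM in hindbrain, 22.2 to 26.8 (median 24.9) in midbrain and 18.0 to 26.1 (median 23.0) in forebrain, a difference of -0.63 ± 0.09, adjusted p = 4.95e-05. Inpp5f read 162 to 193 (median 178) CPM in hindbrain, 133 to 149 in midbrain and 97.9 to 131 in forebrain, and Mkrn3 4.45 to 5.73 (median 4.70) in hindbrain and 2.75 to 3.92 in midbrain. Forebrain minus hindbrain was -0.58 ± 0.08, adjusted p = 2.54e-05 for Inpp5f and -0.67 ± 0.12, adjusted p = 0.000337 for Mkrn3. Copg2, a coatomer subunit gene that overlaps Mest on the other strand, was lower in forebrain than in hindbrain (-0.51 ± 0.12, adjusted p = 0.00321), with 56.8 to 74.8 (median 66.9) and 61.5 to 126 (median 94.7) CPM, and 70.4 to 89.9 (median 75.1) CPM in midbrain. The scaling of Copg2 counts by transcript length ranged 1.78-fold over the 18 transcript-level files. The region fold was 1.42, so that difference is uncertain.

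Low levels in hindbrain marked 4 members. Ppp1r9a, the synaptic actin-binding protein neurabin, read 225, 333 and 320.2 in Fmr1CRE and 366, 378 and 352 in WT forebrain, 249, 303 and 248 in Fmr1CRE and 195, 217 and 233 in WT midbrain, and 121, 142 and 139 in Fmr1CRE and 70.8, 88.6 and 142 in WT hindbrain. All hindbrain libraries lay below all others, with differences of 1.52 ± 0.16, adjusted p = 3.76e-06 for forebrain minus hindbrain, and 1.05 ± 0.16, adjusted p = 0.000132 for midbrain minus hindbrain. Mest, a paternally expressed hydrolase-like gene (chr6:30723547-30748465), read 13.3, 22.4 and 28.3 in Fmr1CRE and 41.9, 39.1 and 35.9 in WT forebrain, and 12.3, 14.8 and 11.8 in Fmr1CRE and 6.45, 7.79 and 8.54 in WT hindbrain, and differed by 1.50 ± 0.28, adjusted p = 0.000504, forebrain minus hindbrain. The forebrain library of Fmr1CRE mouse 1 lay inside the hindbrain range. Magel2, a MAGE family ubiquitin ligase regulator important in hypothalamus, read 10.5, 7.17 and 8.87 in Fmr1CRE and 9.50, 6.94 and 5.69 in WT midbrain, and 2.59, 5.77 and 3.12 in Fmr1CRE and 2.45, 3.57 and 2.93 in WT hindbrain, a difference of 1.32 ± 0.32, adjusted p = 0.00425. In forebrain it ran from 1.46 to 8.65 (median 7.18) CPM, and its difference from hindbrain (0.89 ± 0.32, adjusted p = 0.0330) lost the call in 7 of 17 alternative analyses. Plagl1, a zinc finger growth regulator, ran from 18.7 to 32.4 (median 25.8) CPM in midbrain, 14.3 to 24.5 (median 22.0) in forebrain and 10.9 to 18.3 (median 11.8) in hindbrain. Midbrain minus hindbrain was 1.002 ± 0.15, adjusted p = 9.08e-05.

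Peg10, derived from a retrotransposon, was higher in midbrain than in hindbrain (0.83 ± 0.28, adjusted p = 0.0264), with 50.3 to 77.5 (median 66.0) and 25.6 to 58.7 (median 35.0) CPM, and 12.7 to 60.2 (median 47.6) CPM in forebrain. That call was lost in 4 of 17 alternative analyses. Ube3a, the Angelman syndrome ubiquitin ligase, was higher in midbrain than in hindbrain by 0.27 ± 0.09, adjusted p = 0.0220, with 147 to 186 and 114 to 151 CPM and 137 to 185 CPM in forebrain, a call lost in 6 of 17 alternative analyses. Snrpn, from the opposite parental copy of the same cluster, passed no test and read 610.4 to 726, 652 to 699 and 606 to 651 CPM (forebrain, midbrain, hindbrain). Its coefficient of variation between mice was 2.58% in midbrain. Asb4, an ankyrin repeat gene expressed in hypothalamus, read 0.434 to 3.43 (median 2.67), 2.43 to 6.39 (median 3.98) and 2.24 to 4.29 (median 2.75) CPM, and none of its differences passed the test. In the Snrpn-Ube3a cluster the members therefore did not share 1 pattern, with Ndn lowest in forebrain, Mkrn3 highest in hindbrain and Magel2 lowest in hindbrain.

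Of the noncoding RNAs of the Dlk1-Dio3 cluster, Meg3 and Mirg varied widely between forebrain libraries, and Rian less. Their coefficients of variation there were 56.2%, 45.9% and 12.2%, against a median of 18.7% over all genes tested between regions. Meg3 read 6842, 6242 and 1875 in Fmr1CRE and 2651, 2155 and 3244 in WT forebrain, so the libraries of Fmr1CRE mice 1 and 2 were above all others. Its range was 1570.4 to 3383 CPM in midbrain and 1984 to 2556 in hindbrain. Mirg, further along the same cluster, read 32.2, 31.3 and 12.7 in Fmr1CRE and 14.5, 12.8 and 16.6 in WT forebrain, with the same libraries high. Rian, between them, read 730.1, 702 and 550.4 in Fmr1CRE and 579, 588 and 573 in WT forebrain. Midbrain and hindbrain gave 14.3 to 21.7 and 19.4 to 24.6 CPM for Mirg and 488 to 669 and 446 to 589.5 for Rian. Of these noncoding RNAs Rian alone passed a test, higher in forebrain than in hindbrain (0.30 ± 0.09, adjusted p = 0.0105), and lost it in 4 of 17 alternative analyses. Meg3, forebrain minus hindbrain, was 0.68 ± 0.30, adjusted p = 0.0707. Malat1, a nuclear noncoding RNA outside the cluster, read 2326, 1825 and 817 CPM in Fmr1CRE forebrain and 1002, 887 and 915 in WT forebrain, high in the same libraries, and the part of nuclear RNA content in the Meg3 values was not tested. Dlk1, the paternal coding gene of the cluster, was low in the first of these libraries and not in the second.

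**Figure D4:**
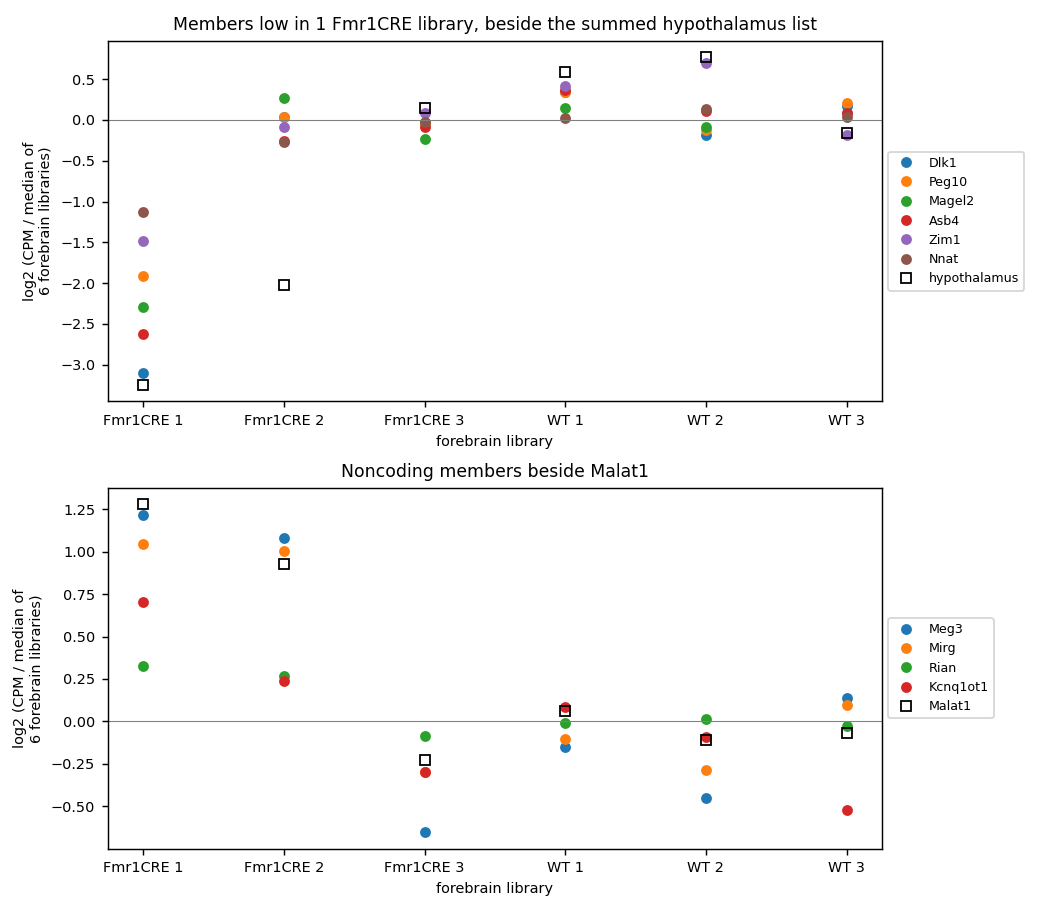
Log2 of CPM over the median of the 6 forebrain libraries, for Dlk1, Peg10, Magel2, Asb4, Zim1 and Nnat beside the summed hypothalamus list (upper panel), and for noncoding members beside Malat1 (lower panel). The library of Fmr1CRE mouse 1 is lowest for all 6 genes of the upper panel, which were picked for being low there, and for the list. The libraries of Fmr1CRE mice 1 and 2 are highest for Meg3, Mirg, Rian, Kcnq1ot1 and Malat1.

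By textbook parental origin, which was not measured in these libraries, 12 of 20 paternally expressed members were called higher in midbrain than in forebrain. Of the 11 tested maternally expressed members, 2 were. In the other direction there were 0 of either. Among all genes 8.94% were called higher in midbrain and 8.07% higher in forebrain. The median log2 differences, forebrain minus midbrain, were -0.60 and -0.44, and the difference between the groups was not tested. Between forebrain and hindbrain, 3 paternal members were higher in forebrain and 8 lower, and 1 maternal member was higher and 3 lower. The backgrounds were 25.7% of all genes higher and 24.4% lower in forebrain. Neighbouring genes of the same clusters, a list of 36 that holds imprinted and biallelic genes, had 33 tested. Of these 3 were higher and 3 lower in forebrain than in midbrain, with a median of 0.01, and the difference between the members and their neighbours was not tested. Dio3, whose enzyme inactivates thyroid hormone at the end of the Dlk1 cluster, was among them, at -1.54 ± 0.33, adjusted p = 0.00565. Dio3 was also higher in midbrain than in hindbrain, by 4.25 ± 0.40, adjusted p = 1.77e-06.

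The study compared the genotypes within each region, which asks whether the knock-in is accompanied by a change in these genes. No member passed an adjusted p of 0.05 between Fmr1CRE and WT mice, 3 against 3, in edgeR's quasi-likelihood test in any region. The background was 0% of 18467 genes for forebrain, 0.00543% of 18400 genes for midbrain and 0% of 19112 for hindbrain. At an unadjusted p under 0.05 forebrain had 3 members, midbrain 4 and hindbrain 3, with backgrounds of 5.43%, 6.17% and 5.13%. With the 3 regions of a mouse summed, 0 members passed either threshold in edgeR, against 0.00451% and 3.7% of all 22191 genes. DESeq2 called 1 member in forebrain, H19 (background 0.168%), 1 in hindbrain, Mest (background 0.349%), and 0 in midbrain (0.337%) or over the sums (0.124%). On forebrain counts simulated from edgeR's own fitted spread, DESeq2 called more unchanged genes than edgeR did, and also recovered more of the changed ones.

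H19 had the smallest p in forebrain. It read 1.78, 1.65 and 2.43 in Fmr1CRE and 0.440, 0.444 and 0.665 in WT, so that the groups did not overlap, at 40 to 57 deposited counts against 10 to 17. The means were 1.95 and 0.516 CPM and the log2 difference, Fmr1CRE minus WT, 1.93 ± 0.32, unadjusted p = 0.000386, adjusted p = 0.806. Without both forebrain libraries labelled replicate 3 it was 1.99 with an adjusted p of 0.166 in edgeR, and with all libraries DESeq2 gave 1.94 with an adjusted p of 0.0239. In midbrain and hindbrain the genotypes overlapped, with 2.24, 1.48 and 2.37 in Fmr1CRE and 2.57, 1.80 and 3.97 in WT midbrain. The scaling of H19 counts by transcript length varied from 0.490 to 1.68 times the assigned reads over the 18 files. The test of whether the genotype difference varied between regions gave an unadjusted p of 0.000368 and an adjusted p of 0.546 in edgeR, and an adjusted p of 0.0180 in DESeq2. Without the same 2 forebrain libraries the edgeR adjusted p was 0.200, and without the 2 midbrain libraries of those mice 0.321.

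For Mest the genotypes did not overlap in forebrain or in hindbrain, in opposite directions, and neither difference passed the adjusted test in edgeR. In forebrain it read 13.3, 22.4 and 28.3 in Fmr1CRE and 41.9, 39.1 and 35.9 in WT, lower in every Fmr1CRE library (-0.85 ± 0.23, unadjusted p = 0.00703, adjusted p = 0.806). In hindbrain it read 12.3, 14.8 and 11.8 in Fmr1CRE and 6.45, 7.79 and 8.54 in WT, higher in every Fmr1CRE library (0.76 ± 0.17, unadjusted p = 0.00206, adjusted p = 0.800). In midbrain the groups overlapped, with 16.0, 22.8 and 27.6 in Fmr1CRE and 31.6, 20.1 and 18.7 in WT. Without both forebrain libraries labelled replicate 3, the forebrain difference was -1.13 with an adjusted p of 0.212 in edgeR, and DESeq2 gave 0.78 in hindbrain with an adjusted p of 0.0340. The interaction of genotype and region had an unadjusted p of 0.000621 and an adjusted p of 0.647 in edgeR, and an adjusted p of 0.00343 in DESeq2. Mest reads were spread over several transcripts, and the one starting at the promoter printed above, Mest-211, held 20.1% to 100% (median 46.6%) of its TPM over the 18 files. The scaling of Mest counts by transcript length varied from 0.697 to 1.44 times the assigned reads, a range of 2.07-fold, against genotype folds of 1.80 in forebrain and 1.70 in hindbrain, so both differences are uncertain. The transcripts overlap Copg2 on the other strand.

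**Figure D5:**
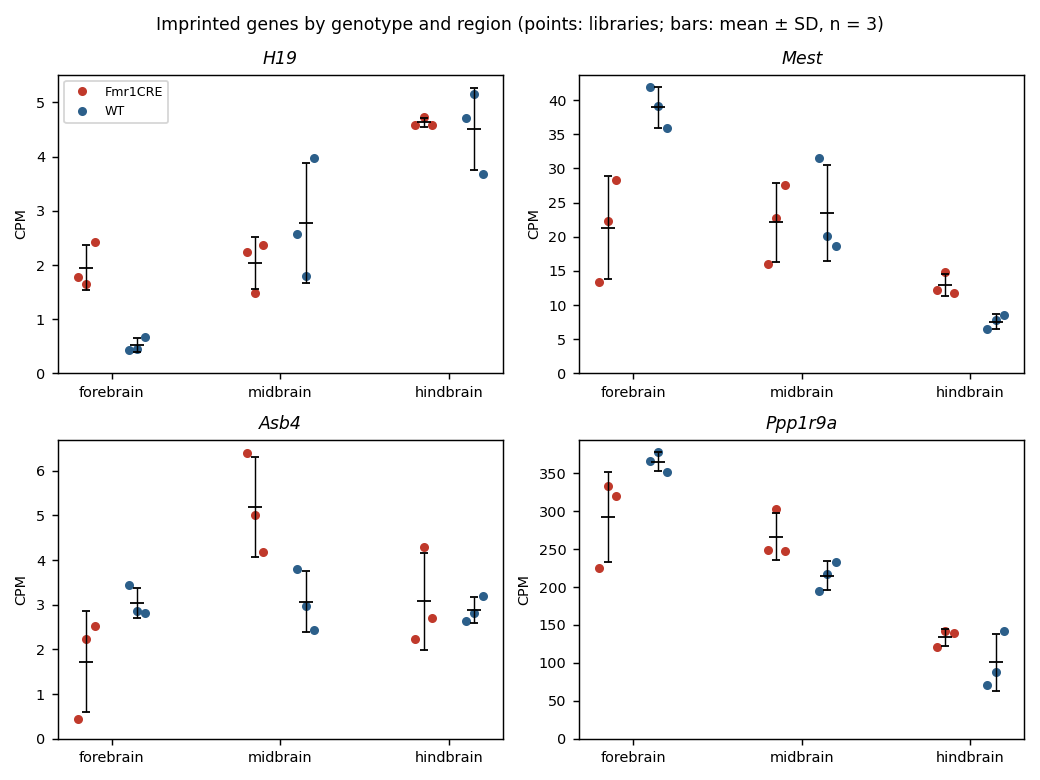
CPM of H19, Mest, Asb4 and Ppp1r9a by region and genotype. Points are libraries and bars the mean ± SD of 3 mice, and for Mest the Fmr1CRE libraries lie below WT in forebrain (13.3 to 28.3 against 35.9 to 41.9 CPM) and above WT in hindbrain (11.8 to 14.8 against 6.45 to 8.54 CPM).

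The other members under an unadjusted p of 0.05 were Mirg in forebrain (0.84 ± 0.34, unadjusted p = 0.0415, adjusted p = 0.806), where the same 2 libraries were high as for Meg3, 4 members in midbrain and Kcnq1ot1 and Kcnk9 in hindbrain. In midbrain Asb4 read 6.39, 5.01 and 4.17 in Fmr1CRE and 3.79, 2.98 and 2.43 in WT (0.76 ± 0.24, unadjusted p = 0.0134, adjusted p = 0.770), and Zim1 22.4, 14.7 and 17.4 in Fmr1CRE and 12.3, 12.8 and 13.5 in WT (0.50 ± 0.17, unadjusted p = 0.0204, adjusted p = 0.792). The summed hypothalamic list did not overlap between the genotypes in midbrain either, at 123, 84.8 and 46.8 CPM in Fmr1CRE and 23.5, 8.90 and 6.68 in WT, and its part in these differences was not tested. Kcnq1ot1 was 0.27 ± 0.10 in midbrain and -0.56 ± 0.23 in hindbrain, at unadjusted p of 0.0231 and 0.0391. Ppp1r9a in midbrain was 0.31 ± 0.12, unadjusted p = 0.0297, adjusted p = 0.803, and Kcnk9 in hindbrain was 0.30 ± 0.12, unadjusted p = 0.0420, adjusted p = 0.875. The scaling by transcript length ranged 1.64-fold for Ppp1r9a and 2.26-fold for Zim1 over the 18 files, so the genotype differences of both are uncertain. Groups of 3 did not overlap for 5 forebrain, 5 midbrain and 3 hindbrain results of members, with backgrounds of 10.3%, 11.3% and 10.9% of all genes. The edgeR interaction test of genotype and region called 0 members at an adjusted p under 0.05 and 6 at the unadjusted one, with backgrounds of 0% and 7.04%, and DESeq2's test called 2, H19 and Mest (background 0.375%).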

How the data were processed

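RNA from forebrain, midbrain and hindbrain of 6 littermate mice at postnatal day 25 was poly(A)-selected, and single-end reads were sequenced on a NextSeq 500. The libraries were run in pools whose membership is not given in the sources used here. The authors quantified transcripts with Salmon (version 0.14.0 in the submitters' processing notes, build mm10) in bcbio_nextgen. The annotation release, and whether counting used strand, are not given in the sources used here. The deposited gene table holds estimated counts per gene, rounded to whole numbers by the authors. These equal TPM scaled by mean transcript length and library size (median difference 0.0198% to 0.0268% per library) rather than summed reads (2.64% to 5.30%), so that a change of assigned transcript moves a gene's count. Per the file headers, the deposited transcript files hold TPM, estimated counts of reads and the effective transcript length in bases. Their names matched their sample record for 2 of 18 files. For the comparison with the deposited counts above, each file was paired with a count column by its file name. Apart from that, only values over all 18 files, such as ranges, medians and mean lengths, were taken from them. A deposited table of variance-stabilized values was not used. Of the measured columns of the count table, 0 were left unused. Genes without a symbol, 105 of 53468 with 0.0438% of counts, were kept in the library sizes and were open to the tests.

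The groups came from the sample titles, and the number in a title named the mouse. Region differences were fitted in edgeR 4.0.16 (R 4.3.3) with trimmed-mean scaling, filterByExpr, the quasi-likelihood test and mouse as a block, because the 3 regions came from the same animal (correlation of deviations between 2 regions of a mouse -0.17 to 0.178). Genotypes were compared within a region, 3 mice against 3, without a block. DESeq2 1.42.0 was an alternative. P-values were adjusted by the Benjamini-Hochberg method over all genes tested, with a threshold of 0.05. The scripts were tested on counts simulated from edgeR's own fitted spread. There, for genotype in forebrain, DESeq2 called more unchanged genes than edgeR and recovered more of the changed ones. P-values measure the spread between these mice of 1 litter. No libraries of a group agreed within sampling noise (lowest chi-square per gene 12.2).

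The members, lists and rules were chosen with earlier results of these data known. All 38 members are named with their levels. Differences are printed for a region comparison where a member passed, or beside a member of the same cluster that did, and for a genotype comparison for up to 5 members with the smallest unadjusted p under 0.05. Levels between genes were compared per kilobase of effective length. Promoter sequences came from RefSeq (GRCm38.p6). Alternatives were other scalings, filters and tools, each genotype alone, each mouse left out, and libraries that stood apart left out.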

Additional observations from a re-analysis of the deposited data

Results flagged for a closer look

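Among the 37 tested members, 10 of 111 groups of 6 libraries of a region (9.01%) held a library far from the other 5 by Dixon's criterion. Chance gives about 1 in 20, and over all genes tested between regions, in the same 18 libraries, the share was 7.74% of 61031 groups. The forebrain library of Fmr1CRE mouse 1 accounted for 4 of them, being low for Dlk1 at 2.49 CPM, Magel2 at 1.46 CPM, Peg10 at 12.7 CPM and Trappc9 at 35.6 CPM. The summed hypothalamic list was also lowest in that library, at 6.16 CPM. In the forebrain library of Fmr1CRE mouse 2 the list was low too, at 14.5 CPM. Dlk1, Magel2 and Peg10 were not low there, at 21.8, 8.65 and 48.8 CPM. The hindbrain library of Fmr1CRE mouse 2 accounted for another 4, being high for Dlk1 at 58.0 CPM, Magel2 at 5.77 CPM, Plagl1 at 18.3 CPM and Kcnk9 at 125 CPM. In that library the 12 hindbrain markers summed to 544 CPM, the lowest of the hindbrain libraries. The other libraries far from the rest were the midbrain of WT mouse 1 for Snrpn, at 699 CPM, and the hindbrain of WT mouse 3 for Igf2r, at 51.6 CPM. The part of dissection in these values was not tested.

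For 3 members all 3 Fmr1CRE libraries lay on opposite sides of the WT libraries in different regions. Whether 3 is more than the rate over the whole gene set was not tested. Genotype groups that did not overlap were common within any single region: 10.3% of genes tested (forebrain), 11.3% (midbrain) and 10.9% (hindbrain). On the log2 scale, Fmr1CRE minus WT, Mest was -0.85 in forebrain and 0.76 in hindbrain, Asb4 was -0.80 in forebrain and 0.76 in midbrain, and Ppp1r9a was -0.29 in forebrain and 0.31 in midbrain. The interaction of genotype and region in edgeR had an adjusted p of 0.647 for Mest and 0.686 for Asb4 and for Ppp1r9a. In DESeq2 the adjusted p for Mest was 0.00343. The summed hypothalamic list, given beside Asb4, overlapped between genotypes in forebrain, where Fmr1CRE mouse 3 had 64.6 CPM and WT mouse 3 had 52.4 CPM.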

How the results depend on the processing

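No direction of a called member reversed in any alternative. Of the single-member region results, 865 kept their call and 101 lost it. With Fmr1CRE mice alone, the calls between forebrain and hindbrain were 11 members and 5936 genes, between midbrain and hindbrain 11 members (4 at a log2 difference of at least 1) and 4542 genes, and between forebrain and midbrain 1 member (0 at that size) and 184 genes. Midbrain then exceeded both regions for 1 member and 6 genes. With WT mice alone, forebrain against midbrain gave 9 members and 1229 genes, and midbrain exceeded both for 5 members and 152 genes. These fits hold fewer mice. Members called between forebrain and midbrain at a log2 difference of at least 1 numbered 4 with DESeq2, with total counts alone, with no replicate block without the 2 forebrain libraries labelled replicate 3 and without the 2 midbrain ones, and 2 to 4 when single mice were left out (4 without WT mouse 2). Between midbrain and hindbrain that count was 3 to 9, lowest without WT mouse 1. Without the forebrain libraries of Fmr1CRE mice 1 and 2, an alternative added after the data were seen, forebrain against midbrain gave 2130 genes, and midbrain exceeded both for 225 genes. Leaving out single mice, midbrain exceeded both for 8 to 11 members and 270 to 538 genes, lowest without WT mouse 1. Without the 2 forebrain libraries labelled replicate 3 it did so for 591 genes.

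For genotype, DESeq2 called 1 member and 31 genes in forebrain, 62 genes in midbrain, 1 member and 59 genes in hindbrain, 26 genes over the sums, and 2 members and 74 genes for the interaction. With no filter edgeR called 11 genes in midbrain, 11 in hindbrain and 4 over the sums. With at least 10 counts in every library it called 0 in midbrain, and without both midbrain libraries labelled replicate 3 it called 3 there. In 1 fit of all 18 libraries it called 1 gene in forebrain, 0 in midbrain and 1 in hindbrain. Leaving out single mice gave 0 to 4 genes in midbrain (4 without Fmr1CRE mouse 3), 0 to 5 in hindbrain (5 without WT mouse 3), 0 over the sums and 0 to 4 for the interaction, which gave 2 genes without the 2 forebrain libraries labelled replicate 3. Replicate numbers across genotypes were only shared numbers (correlation -0.12 to 0.0693 between same-numbered mice), and with a replicate block the sums gave 0 genes and no member was called in any region. Low counts limit H19, Airn and Mkrn3, and Phlda2 could not be tested.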
